A study of Mus musculus with 13 samples.

Results

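The thioredoxin, peroxiredoxin and NQO1 genes are 10 of the 32544 gene symbols in the deposited count table: Txn1, Txn2, Txnrd1, Txnrd2, Srxn1, Prdx1, Prdx3, Prdx5, Prdx6 and Nqo1. They were chosen by name, as the rows whose symbol equals one of these, and all 10 have a row. The counts come from perfused lung of wild-type C57BL/6J male mice, bought at 7 weeks of age and kept for 5 days at 21% oxygen (normoxia, 7 libraries) or 80% oxygen (hyperoxia, 6 libraries). RNA from whole lung was read by Quant-seq, which sequences the 3′ end of polyadenylated transcripts. The labels do not say whether each library came from its own animal, so the tests measure the spread between libraries.

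Thioredoxins are small proteins that reduce disulfide bonds in other proteins, and thioredoxin reductases recharge them with electrons from NADPH. Peroxiredoxins use that supply to reduce hydrogen peroxide and organic peroxides, sulfiredoxin (Srxn1) rescues peroxiredoxins that have been over-oxidized, and NQO1 reduces quinones. The cytosol and the mitochondrion each hold a set: Txn1, Txnrd1 and Prdx1 in the cytosol, and Txn2, Txnrd2 and Prdx3 in the mitochondrion, while Prdx5 is found in several compartments. Several of the cytosolic genes are known targets of NRF2, the transcription factor that KEAP1 holds back until oxidants or electrophiles modify it.

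Total counts per library ran from 1607111 to 3387736 in normoxia and from 2029006 to 4540288 in hyperoxia. Levels are given in CPM, counts scaled to a common library total, after TMM scaling, which corrects that total for differences in composition, and 3 counts, the smallest number taken as detectable, correspond to 0.656 to 1.84 CPM. The library labelled Hyperoxia 1 (hyperoxia 1 below) stood apart: its mean correlation with the other libraries was 0.779, against 0.886 for the next lowest hyperoxic library. It was the lowest hyperoxic library for 39.8% of the genes tested, and its counts were lower in short transcripts, with a median log2 deviation from the other hyperoxic libraries of -0.53 in the shortest length quartile of genes and 0.07 in the longest. The values of the 10 genes and the counts and medians of the lists of related genes are therefore given with and without it. No marker in the lists of 9 alveolar type 2, 7 alveolar type 1, 6 club cell and 8 capillary endothelial genes was at 0 in every library.

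Sulfiredoxin, thioredoxin reductase 1 and Prdx6 were higher in hyperoxia, and the thioredoxins and the other peroxiredoxins did not pass the test. Of the 10 genes, 9 had enough counts to be tested with edgeR's quasi-likelihood test, with p-values adjusted by Benjamini-Hochberg over 12496 genes. At an adjusted p of 0.05, 3 were higher and 0 were lower, where 11.8% of all genes tested were higher and 10.8% lower, or 22.6% in either direction. At an unadjusted p under 0.05, 4 were higher and 0 lower, and DESeq2 and limma-voom each gave 3 higher and 0 lower. The median log2 fold change of the 9 genes was 0.59, and that of all genes tested was -0.03. Without hyperoxia 1, 4 of the 9 were higher and 0 lower, where 28.5% of all genes passed and 15.2% were higher, with the gain being Nqo1, and the median was 0.43. The number higher was 2 without normoxia 6 or normoxia 7, each of which carries the call of Prdx6, and 4 without normoxia 3, where Txn2 passed.

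**Figure D1:**
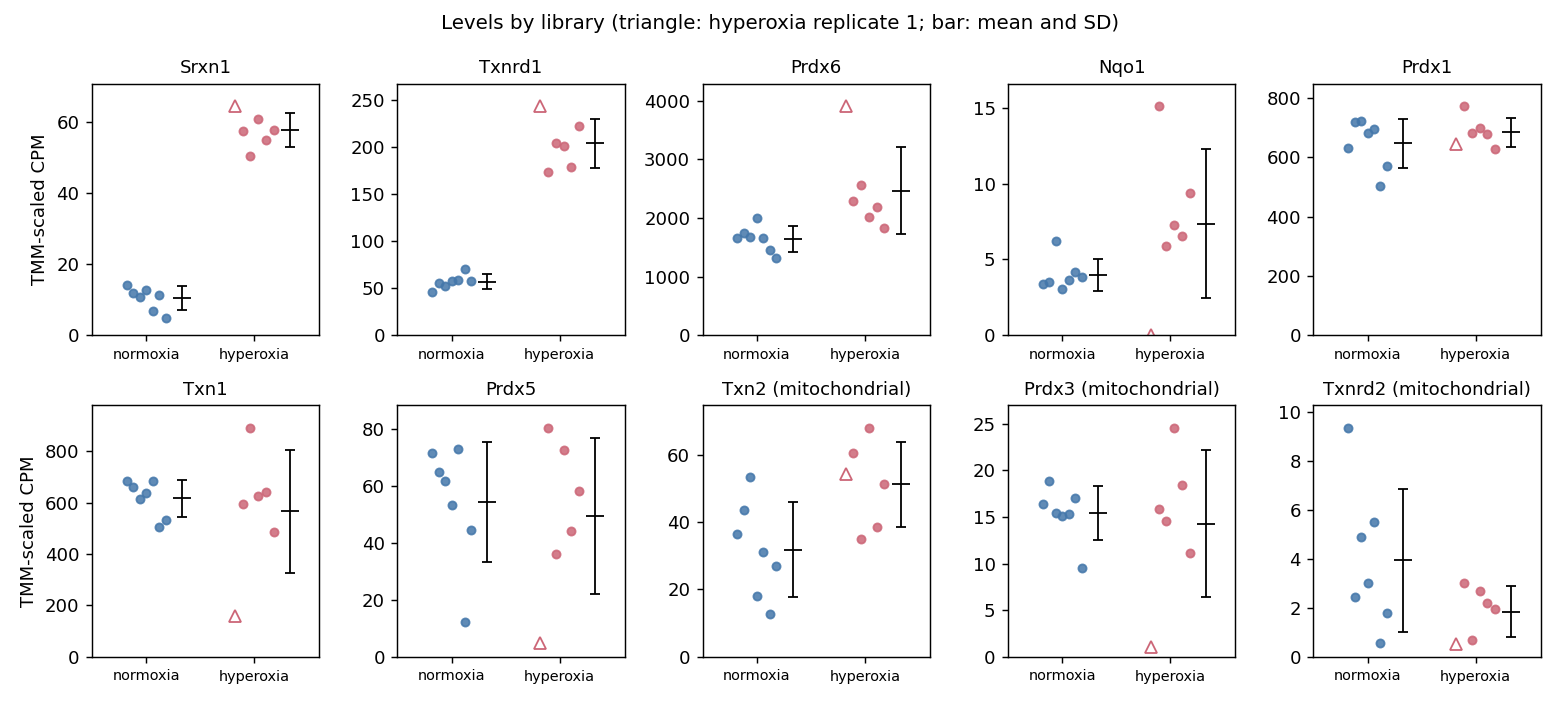
Level of each of the 10 genes in TMM-scaled CPM (linear axes that start at 0), with 1 point per library, normoxia in blue (7 libraries) and hyperoxia in red (6 libraries, hyperoxia 1 as an open triangle); bars are the mean and SD. For Srxn1 and Txnrd1 every red point lies above every blue point, whereas the triangle is the lowest red point for Txn1, Prdx3, Prdx5, Nqo1 and Txnrd2 and the highest for Srxn1, Txnrd1 and Prdx6.

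Srxn1 (chr2:152105516-152111376, plus strand, GRCm38) encodes sulfiredoxin, which reduces over-oxidized peroxiredoxins back to the working form. Its level was 4.76 CPM in the lowest, 11.1 CPM in the median and 14.2 CPM in the highest normoxic library, against 50.4, 57.6 and 64.3 CPM in hyperoxia. The lowest hyperoxic library was thus well above the highest normoxic one, and the spread within each condition was small, at 10.3 ± 3.37 CPM (SD, n = 7) and 57.6 ± 4.79 CPM (SD, n = 6). This was the largest change of the 10 genes, with a log2 fold change of 2.47 (SE 0.21), or 5.53-fold, and an adjusted p of 1.4e-06 in edgeR. Without hyperoxia 1 it was 2.45 (adjusted p = 4.5e-07).

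Txnrd1 (chr10:82833951-82897712, plus strand) encodes the cytosolic thioredoxin reductase, a selenoprotein that passes electrons from NADPH to thioredoxin. The level ran from 45.9 through a median of 57.7 to 70.8 CPM in normoxia and from 174 through 203 to 243 CPM in hyperoxia, with no overlap between the groups. The means were 57.0 ± 7.57 CPM (SD, n = 7) and 204 ± 26.2 CPM (SD, n = 6). Txnrd1 rose by a log2 fold change of 1.84 (SE 0.13), or 3.58-fold, with an adjusted p of 2.2e-07 in edgeR, and 1.80 without hyperoxia 1. Srxn1 and Txnrd1 were the 2 of the 9 tested genes whose groups did not overlap with hyperoxia higher, a pattern shown by 5.6% of all genes tested, and the same 2 did not overlap without hyperoxia 1, where 8.31% of all genes showed it. Both kept their calls in 13 of 13 refits that left out 1 library each. Eid3 lies within Txnrd1 on the same strand without sharing an exon, with a mean of 1.00 CPM in normoxia and of 3.61 CPM in hyperoxia.

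NRF2 acts through the antioxidant response element, so the promoters were searched for its core letters, TGACNNNGC or TGAGNNNGC, and for the AP-1-like TGANTCA, on both strands. The RefSeq promoter table (GRCm38.p6, 250 bases before to 50 after each start) held 11 windows for 9 of the genes. Either 9-letter core was found in windows of 4 of them, Srxn1, Txnrd1, Prdx1 and Txn2, and in 27.8% of all 32851 promoter windows. TGANTCA was found in Srxn1 and Prdx1, and in 7.81% of all windows. The counts of genes take a match in any window of a gene, while the shares are of single windows, so the units differ. The windows of Txn1, Txnrd2, Prdx3, Prdx5 and Nqo1 held none of these letters, and a match is a string of letters in this window, not a measured site. The sequences below are shown because they set the 2 genes with the clearest change beside Prdx1, whose level changed little; each is 30 bases on the gene's strand, all 3 genes lying on the plus strand, with the matching letters in capitals.
Srxn1, 45 bases before the start, chr2:152105469-152105498: aaattcacccTGAGTCAGCggccgggcgcg
Srxn1, 102 bases before the start, chr2:152105411-152105440: ctcggagggccTGAGTCAccacgctgtgcg
Srxn1, 158 bases before the start, chr2:152105356-152105385: tctactgagaGCCGACTCAtcctctctggg
Txnrd1, 92 bases before the second of its starts, chr10:82859104-82859133: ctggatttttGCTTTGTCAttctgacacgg
Prdx1, 133 bases before the start, chr4:116685456-116685485: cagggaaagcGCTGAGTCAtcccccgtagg
In the first Srxn1 match and in the Prdx1 match the 9-letter core overlaps a TGANTCA match on the same bases. The Srxn1 window held 3 matches to the 9-letter cores and 2 to TGANTCA, and the Prdx1 window held 2 of each.

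Nqo1 (chr8:107388225-107403206, minus strand) encodes the quinone reductase and is among the best known NRF2 targets, but it was thinly counted here. Its level ran from 3.03 through a median of 3.68 to 6.21 CPM in normoxia (6 to 19 counts per library), and from 0 through 6.92 to 15.1 CPM in hyperoxia (0 to 43 counts). In hyperoxia 1 it had 0 counts, which allows a level of up to 1.61 CPM, and 4 of 6 hyperoxic libraries were above the highest normoxic one. With all libraries the log2 fold change was 0.90 (SE 0.46) with an adjusted p of 0.180 in edgeR, and without hyperoxia 1 it was 1.15 (SE 0.29), or 2.21-fold, with an adjusted p of 0.00693. The call thus turned on that library.

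Prdx6 (chr1:161240112-161251219, minus strand), a peroxiredoxin that also acts on phospholipids and is known for its abundance in lung epithelium, had a smaller difference. Its level ran from 1319 through a median of 1664 to 2001 CPM in normoxia and from 1829 through 2240 to 3901 CPM in hyperoxia, where the highest value is that of hyperoxia 1. The groups overlapped, with 5 of 6 hyperoxic libraries above the highest normoxic one. Prdx6 rose by a log2 fold change of 0.59 (SE 0.18) with an adjusted p of 0.0250 in edgeR, and by 0.43, or 1.34-fold, with an adjusted p of 0.0198 without hyperoxia 1. The call held in 11 of 13 refits that left out 1 library and was lost without normoxia 6 (adjusted p = 0.0506) and without normoxia 7 (0.0580).

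Markers of several cell types differed between the conditions, in both directions. Over all genes tested, 11.8% were higher and 10.8% lower, and with so few markers per type several of the counts below lie near these shares. The summed level of 9 alveolar type 2 markers was 12914 to 23946 CPM in normoxia and 3439 to 7532 CPM in hyperoxia, with 6 of the 9 lower, and that of 6 club cell markers was 15025 to 53702 CPM and 291 to 10667 CPM, with 2 of the 6 lower. That of 7 alveolar type 1 markers was 3442 to 3877 CPM and 4357 to 5326 CPM, higher in hyperoxia without overlap, with 1 of the 7 genes higher and 1 lower. Ciliated cell markers summed to 254 to 558 CPM and 232 to 347 CPM, with 2 of 6 lower. Among immune cells, the summed level was 235 to 281 CPM and 45.9 to 79.7 CPM for B cell markers (6 of 6 lower), 104 to 145 CPM and 74.4 to 99.0 CPM for monocytes and recruited macrophages (2 of 7 lower), and 236 to 401 CPM and 46.1 to 562 CPM for alveolar macrophages (5 of 7 lower). T and NK cell markers summed to 25.6 to 41.5 CPM and 7.99 to 25.2 CPM, with 1 of 2 tested lower. Cardiac muscle markers (5 of 8 lower) and capillary endothelial markers (3 of 8 lower) overlapped between the conditions in summed level, as did smooth muscle and pericyte markers (2 of 6 higher and 0 lower). Without hyperoxia 1 the lowest hyperoxic sum was 3504 CPM for club cells and 279 CPM for alveolar macrophages. In bulk lung RNA, fewer cells of a type and less RNA per cell cannot be told apart. The part of cell composition in the levels of these 10 genes was not tested.

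Prdx1 (chr4:116685544-116700822, plus strand), the main cytosolic peroxiredoxin, lay at nearly the same level in both conditions. It ran from 502 through a median of 682 to 721 CPM in normoxia and from 628 through 681 to 771 CPM in hyperoxia, with wide overlap. For Prdx1 the log2 fold change was 0.08 (SE 0.12) with an adjusted p of 0.687 in edgeR, and 0.11 without hyperoxia 1. Its near relative Prdx2, another cytosolic peroxiredoxin, had a log2 fold change of 0.11 (adjusted p = 0.664), or -0.0047 without hyperoxia 1, and Prdx4, the peroxiredoxin of the endoplasmic reticulum, had -0.67 (adjusted p = 0.0714 in edgeR, but 0.0422 in DESeq2 and 0.0454 in limma on the deposited values).

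Txn1 (chr4:57943373-57956411, minus strand), the cytosolic thioredoxin, had a median of 639 CPM in normoxia, with a lowest value of 505 and a highest of 685 CPM. In hyperoxia the median was 611 CPM, but the range was far wider, from 160 CPM in hyperoxia 1 to 890 CPM. For Txn1 the log2 fold change was -0.12 (SE 0.26, adjusted p = 0.786 in edgeR) with all libraries and 0.091 (adjusted p = 0.684) without hyperoxia 1, so its direction turned on 1 library.

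Prdx5 (chr19:6906697-6910106, minus strand), a peroxiredoxin found in mitochondria, peroxisomes and cytosol, varied widely within both conditions. Its level ran from 12.3 through a median of 61.5 to 72.9 CPM in normoxia and from 4.83 through 51.0 to 80.1 CPM in hyperoxia, with the lowest value again in hyperoxia 1. For Prdx5 the log2 fold change was -0.12 (SE 0.44, adjusted p = 0.874) with all libraries and 0.12 (adjusted p = 0.801) without hyperoxia 1. Its exons overlap those of Trmt112 on the opposite strand (mean of 45.9 CPM in normoxia and 38.2 CPM in hyperoxia), and whether the counting used strand is not given in the sources used here, so reads of the pair may not have been separated.

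Among the mitochondrial genes, Txn2 was the one with the highest fold change. Txn2 (chr15:77915047-77929006, minus strand), the mitochondrial thioredoxin, ran from 12.8 through a median of 31.2 to 53.3 CPM in normoxia and from 35.1 through 52.8 to 67.9 CPM in hyperoxia. All 6 hyperoxic libraries were above the normoxic median and 3 were above the highest normoxic value. For Txn2 the log2 fold change was 0.69 (SE 0.28), or 1.61-fold, with an adjusted p of 0.0907 in edgeR, and 0.69 with an adjusted p of 0.0769 without hyperoxia 1. It passed in 1 of 13 refits, without normoxia 3 (0.89, adjusted p = 0.0322).

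Prdx3 (chr19:60864051-60874556, minus strand), the peroxiredoxin of the mitochondrial matrix, ran from 9.52 through a median of 15.4 to 18.9 CPM in normoxia and from 1.07 through 15.2 to 24.5 CPM in hyperoxia. The lowest hyperoxic value is hyperoxia 1, with 2 counts. The log2 fold change was -0.08 (SE 0.37, adjusted p = 0.900) and became 0.15 (adjusted p = 0.638) without that library.

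Txnrd2 (chr16:18426384-18479073, plus strand), the mitochondrial thioredoxin reductase, fell below the filter on low counts and was not tested in the fit used for the other genes. It had 2 to 25 counts per library in normoxia (median 9) and 1 to 10 in hyperoxia (median 7.5), or a mean of 3.94 ± 2.93 CPM (SD, n = 7) against 1.85 ± 1.03 CPM (SD, n = 6), with overlapping groups. Without hyperoxia 1 the hyperoxic mean was 2.11 ± 0.895 CPM (2 to 10 counts), and the groups still overlapped. A fit of all libraries without the filter gave a log2 fold change of -0.96 (SE 0.54, adjusted p = 0.263). Its mean was 5.05 CPM in normoxia against 1.42 CPM in hyperoxia in the libraries lettered B to M, and 1.17 against 2.28 CPM in those lettered O to S, the 2 runs of letters in the library names.

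**Figure D2:**
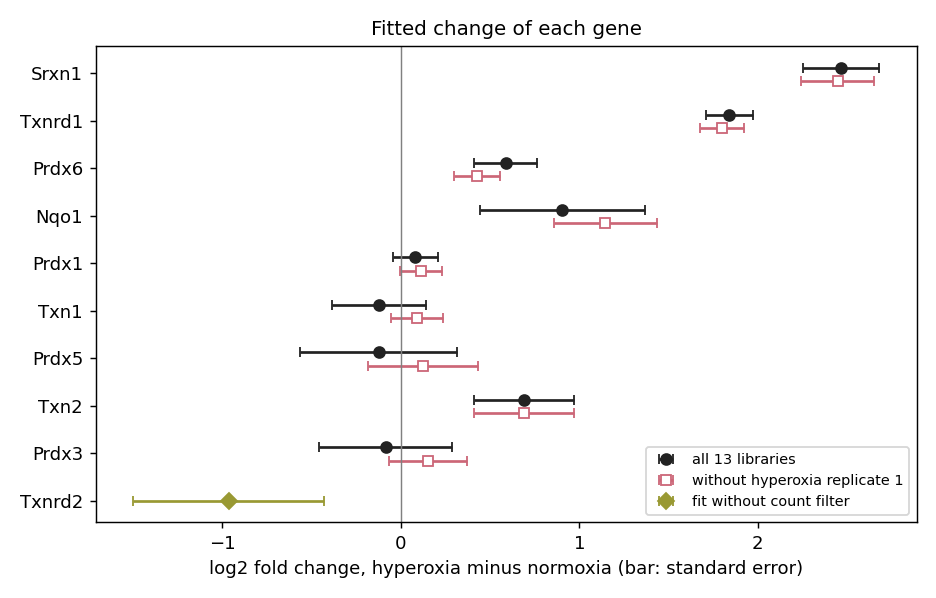
Log2 fold change, hyperoxia minus normoxia, of each of the 10 genes with its standard error as a bar, from the edgeR fit to all 13 libraries (black circles) and without hyperoxia 1 (open red squares); Txnrd2 is from a fit without the count filter (green diamond). Srxn1 at 2.47 and Txnrd1 at 1.84 lie far to the right of the others in both fits, while Txn1, Prdx5 and Prdx3 move from just left of 0 to just right of it when the library is left out.

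Hyperoxia 1 deviated from the mean of the other 5 hyperoxic libraries unequally over these genes. Nqo1 (0 counts), Txnrd2 (1 count) and Prdx3 (2 counts) were under the floor of 3 counts in it, so no deviation is given for them. Its log2 deviation was -3.36 for Prdx5 and -1.98 for Txn1, against 0.85 for Prdx6, 0.31 for Txnrd1, 0.19 for Srxn1, 0.14 for Txn2 and -0.10 for Prdx1. In the same library the summed markers of alveolar macrophages were at 46.1 CPM, against 279 to 562 CPM in the other hyperoxic libraries. The sums of further cell types were also at their lowest hyperoxic value there, and are set beside the next lowest hyperoxic library. They were 6.97 against 20.8 CPM for cardiac muscle, 291 against 3504 CPM for club cells and 1204 against 1545 CPM for capillary endothelium. For neutrophils they were 48.3 against 90.6 CPM, and for ciliated cells 232 against 234 CPM, which is nearly the same. Hyperoxia 1 had the highest hyperoxic sums for alveolar type 1 cells (5326 CPM) and for smooth muscle and pericytes (577 CPM). Shorter transcripts were also lower in it, as given above, and of the 4 genes in the shortest length quartile Txn1 and Prdx5 were low while Txn2 and Prdx1 were close to the other libraries. The part of these values in the low levels was not tested.

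The cytosolic and mitochondrial sets were then compared. The 6 cytosolic genes (Txn1, Txnrd1, Srxn1, Prdx1, Prdx6 and Nqo1) had a median log2 fold change of 0.75, or 0.79 without hyperoxia 1. The 2 mitochondrial genes that could be tested had a median of 0.30, or 0.42 without that library, beside -0.03 for all genes tested. All 3 genes that passed the test belong to the cytosolic set, and none of the mitochondrial ones passed. These counts do not test whether the sets differ, and no test of that was made. The 3 cytosolic genes with a direct mitochondrial counterpart, Txn1, Txnrd1 and Prdx1, were set against it within each library, as the log2 ratio of their counts with 0.5 added to each. The ratio was compared between conditions with a two-sided exact permutation test over all 1716 permutations of the library labels (smallest possible p = 0.000583), adjusted over the 3 pairs. Quant-seq counts are not divided by length, so only the shift of a ratio is read, not its level.

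The reductase ratio, Txnrd1 over Txnrd2, was higher in hyperoxia. It was 4.17 ± 1.40 (SD, n = 7; from 2.28 to 6.67) in normoxia and 6.84 ± 1.00 (SD, n = 6; from 5.76 to 8.24) in hyperoxia on the log2 scale, with 3 of 6 hyperoxic libraries above the highest normoxic one. The shift was 2.67, with an exact permutation p of 0.00408 (adjusted 0.0122), and 2.39 (adjusted exact p = 0.0265) without hyperoxia 1. It rests in part on 1 to 25 counts of Txnrd2 per library, which were under the floor of 3 counts in hyperoxia 1, hyperoxia 3 and normoxia 6. The ratios of these 3 libraries depend more on the added 0.5 than those of the others. With counts under 3 set to 3, an alternative chosen after the data were seen, the shift was 2.50 (adjusted exact p = 0.0105).

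The thioredoxin ratio, Txn1 over Txn2, went the other way. It was 4.40 ± 0.63 (SD, n = 7) in normoxia and 3.34 ± 1.04 (SD, n = 6) in hyperoxia, and 4 of 6 hyperoxic libraries were below the lowest normoxic one. The shift was -1.06 with an exact permutation p of 0.0373, which did not pass after adjustment (0.0559), and without hyperoxia 1 it was -0.71 (adjusted exact p = 0.136). It passed without normoxia 3 (-1.21, adjusted exact p = 0.0357), without hyperoxia 3 (-1.33, 0.0133) and without hyperoxia 5 (-1.21, 0.0455).

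The peroxiredoxin ratio, Prdx1 over Prdx3, was 5.39 ± 0.31 (SD, n = 7) in normoxia and 5.97 ± 1.48 (SD, n = 6) in hyperoxia. The shift of 0.58 (adjusted exact permutation p = 0.410) became -0.0055 (0.975) without hyperoxia 1.

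**Figure D3:**
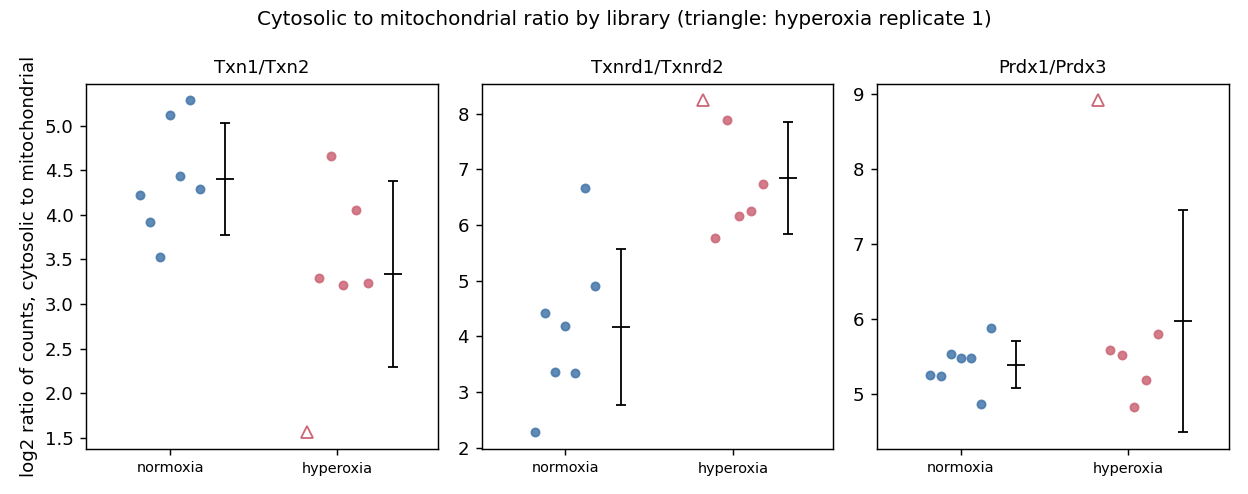
Log2 ratio of the counts of a cytosolic gene to those of its mitochondrial counterpart in each library, for the thioredoxins, the thioredoxin reductases and the peroxiredoxins, with normoxia in blue, hyperoxia in red, hyperoxia 1 as an open triangle, and the mean and SD as bars; the axes do not start at 0 and differ between panels. The reductase ratio lies mostly higher in hyperoxia and the thioredoxin ratio mostly lower, and in the peroxiredoxin panel only the triangle, at 8.91, lies apart.

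The library names carry letters that fall into 2 runs, B to M (5 normoxic and 3 hyperoxic libraries) and O to S (2 and 3), whose meaning is not stated. The log2 fold change within the runs was 2.38 and 2.84 for Srxn1, 1.99 and 1.63 for Txnrd1, 0.80 and 0.53 for Prdx6, and 0.87 and 0.94 for Nqo1, so these had the same sign in both. For Txn2 it was 0.49 (adjusted p = 0.378) and 1.39 (adjusted p = 0.0218). For Prdx5 it was -0.64 and 1.04, for Prdx3 -0.56 and 0.42, for Txn1 -0.22 and 0.17, and for Prdx1 0.07 and 0.31. The difference between the runs was tested as an interaction in edgeR and passed for 0 of 12496 genes (1158 at an unadjusted p under 0.05); among these genes 0 passed even unadjusted, with a lowest adjusted p of 0.540. The reductase ratio shifted by 3.78 in B to M and by 0.60 in O to S (adjusted exact p = 0.0536 and 0.600). The groups did not overlap in B to M, and the unadjusted p there, 0.0179, was the smallest that 56 permutations allow, while the 10 permutations of O to S cannot reach 0.05. The thioredoxin ratio shifted by -1.07 and -1.29 (adjusted exact p = 0.196 and 0.600). The peroxiredoxin ratio shifted by 1.28 in B to M, which includes hyperoxia 1, and by -0.11 in O to S (adjusted exact p = 0.0536 and 0.700).

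The rest of the thioredoxin and peroxiredoxin families moved in both directions. Of 26 genes tested in a list of other thioredoxin-fold, sestrin and peroxiredoxin genes, 6 were higher and 6 lower, with a median log2 fold change of -0.13, or 6 and 6 with a median of 0.02 without hyperoxia 1. Over all genes tested, 11.8% were higher and 10.8% lower. Glrx3, a cytosolic glutaredoxin that carries iron-sulfur clusters, rose from 122 to 264 CPM (log2 fold change 1.11, adjusted p = 0.000148). Txnl1, a thioredoxin-like protein of the proteasome, rose from 78.7 to 152 CPM (0.95). Sesn2, a stress-inducible sestrin, rose from 2.39 to 14.4 CPM (2.49), whereas its relatives Sesn1 (-1.25) and Sesn3 (-0.95) fell. Txndc5, a thioredoxin-fold protein of the endoplasmic reticulum, fell from 55.5 to 26.3 CPM (-1.07). All 6 kept their calls in 13 of 13 refits that left out 1 library.

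Txnip, the thioredoxin-interacting protein that binds and inhibits thioredoxin, was outside the naming rule and is given after its values were seen. Its normoxic mean was 338 ± 66.8 CPM (SD, n = 7) and its hyperoxic mean 132 ± 73.3 CPM (SD, n = 6), with no overlap between the groups, where 5.23% of all genes showed no overlap with hyperoxia lower. Txnip fell, with a log2 fold change of -1.35 (SE 0.39, adjusted p = 0.0194 in edgeR) that became -1.10 without hyperoxia 1, in which it was at 13.4 CPM. Within B to M it did not pass (-1.63, adjusted p = 0.126), and within O to S it did (-0.95, adjusted p = 0.00938).

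A list of possible clients and partners of thioredoxin held, among others, methionine sulfoxide reductases, ribonucleotide reductase subunits, the PAPS synthases and Map3k5, a kinase that reduced thioredoxin binds and inhibits. Of its 9 genes tested, 0 were higher, by DESeq2 and limma-voom also and at an unadjusted p under 0.05, and 2 were lower, beside 11.8% and 10.8% of all genes; with so few genes these counts lie near the shares of all genes. The median was -0.27, or -0.07 without hyperoxia 1. These were Msrb2, a mitochondrial methionine sulfoxide reductase (-1.30), and Papss1, which makes the sulfate donor PAPS (-0.94). Neither call was firm: that of Papss1 held in 6 of 13 refits that left out 1 library and that of Msrb2 in 5 of 13. The number lower was 0 without normoxia 1, 2 or 3 or hyperoxia 3, 3 without hyperoxia 1 (with Map3k5, log2 fold change -0.78, adjusted p = 0.000753, as the addition, named after its values were seen), 2 without hyperoxia 6, and 1 without each of the others.

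Of 12 regulators of NRF2 tested, 3 were higher and 0 lower, beside 11.8% and 10.8% of all genes, with a median of 0.34 (6 higher and 1 lower at an unadjusted p under 0.05; 3 and 0 by DESeq2 and by limma-voom; 1 lower among genes with at least 10 counts in every library). Without hyperoxia 1, 4 were higher and 0 lower, beside 15.2% and 13.3% of all genes, with a median of 0.26. Sqstm1, the autophagy receptor that binds KEAP1, rose from 389 to 926 CPM (log2 fold change 1.25, adjusted p = 5.8e-05). Mafg, a small MAF partner of NRF2, rose from 151 to 233 CPM (0.63). Nfe2l2, which encodes NRF2, rose from 224 to 345 CPM (0.62, adjusted p = 0.0236), with hyperoxia 1 highest at 577 CPM; the log2 fold change was 0.43 (adjusted p = 0.0207) without hyperoxia 1, and the call was lost without normoxia 2 (0.62, adjusted p = 0.0501). Keap1 had a log2 fold change of 0.48 (adjusted p = 0.0949 in edgeR), or 0.22 (adjusted p = 0.146) without hyperoxia 1, in which it was at 307 CPM.

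Of 32 other known NRF2 target genes tested, 9 were higher and 0 lower, beside 11.8% and 10.8% of all genes, with a median of 0.42 (13 higher and 1 lower at an unadjusted p under 0.05; 10 and 0 by DESeq2, 8 and 0 by limma-voom). Without hyperoxia 1, 17 were higher and 0 lower, beside 15.2% and 13.3% of all genes, and the median was 0.58; the number lower was 1 without hyperoxia 2 and 2 without normoxia 6. Esd, an esterase that acts in formaldehyde disposal, rose from 139 to 644 CPM (2.21, adjusted p = 2.1e-07). Gclc and Gclm, the catalytic and modifier subunits of the enzyme that limits glutathione synthesis, rose from 215 to 928 CPM (2.11) and from 82.3 to 228 CPM (1.47).

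**Figure D4:**
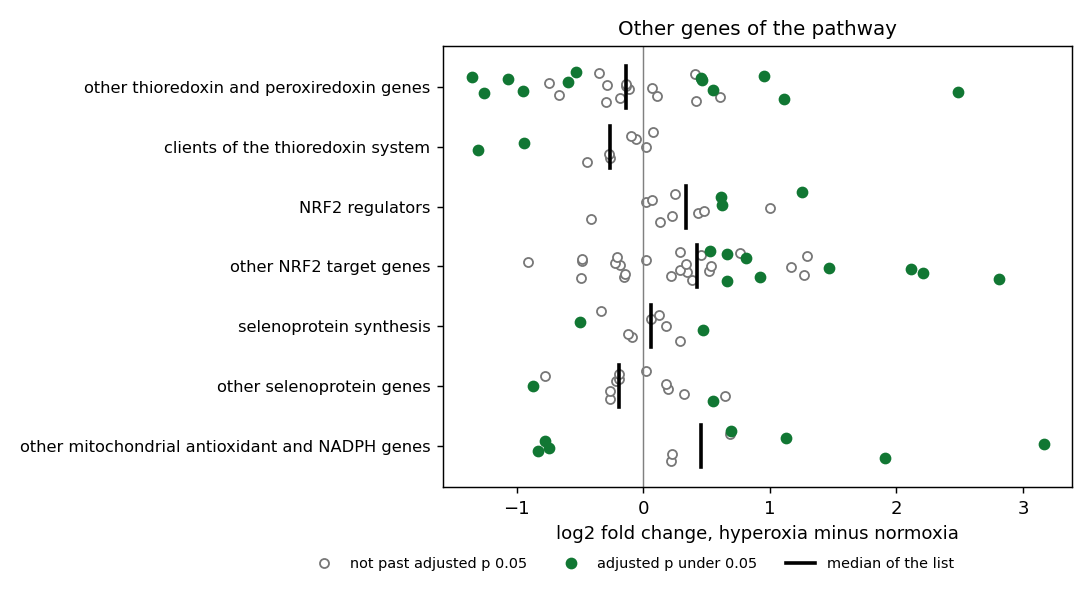
Log2 fold change, hyperoxia minus normoxia, of every tested gene in the 7 lists of related genes, 1 row per list; filled green points passed an adjusted p of 0.05, open points did not, and the black line is the median of the list. The points of the NRF2 targets that passed all lie to the right of 0, while the other thioredoxin and peroxiredoxin genes that passed lie on both sides, 6 on each.

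Of 9 genes for selenoprotein synthesis tested, 1 was higher (Secisbp2, which binds the selenocysteine insertion element, 0.47) and 1 lower (Sephs1, which belongs to the selenophosphate synthetase family, -0.50), which is near the 22.6% of all genes that passed in either direction. The median was 0.06, or 0.09 without hyperoxia 1, with the same counts. The call of Secisbp2 was lost without normoxia 2, normoxia 6 or hyperoxia 6 (highest adjusted p = 0.0662), and that of Sephs1 held in 4 of 13 refits, those without normoxia 3, normoxia 6, hyperoxia 1 or hyperoxia 3 (adjusted p otherwise up to 0.0964). Of 13 other selenoprotein genes tested, 1 was higher (Ept1, a phospholipid synthesis enzyme, 0.55) and 1 lower (Selo, a mitochondrial selenoprotein, -0.87), with a median of -0.19; without hyperoxia 1 the counts were 2 and 2 and the median 0.05, and without hyperoxia 4 or hyperoxia 5 Selo was not called (adjusted p = 0.0509 and 0.0549).

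Other mitochondrial antioxidant and NADPH-supplying genes divided into both directions, with 4 of 10 higher and 3 lower and a median of 0.46, or 5 and 3 and a median of 0.32 without hyperoxia 1, beside 11.8% higher and 10.8% lower over all genes (15.2% and 13.3% without that library). Mthfd2 and Shmt2, mitochondrial folate enzymes, rose from 8.16 to 73.3 CPM (log2 fold change 3.16, adjusted p = 2.5e-07) and from 13.7 to 29.5 CPM (1.12). Sod2, the mitochondrial superoxide dismutase, rose from 156 to 252 CPM (0.69). Nnt, the mitochondrial transhydrogenase gene, in which C57BL/6J mice are known to carry a deletion that abolishes the working enzyme, fell by 0.78 on the log2 scale. Idh2 and Me3, whose enzymes make NADPH in mitochondria, fell by 0.83 and 0.74, the last with a call that held in only 2 of 13 refits, those without hyperoxia 1 and hyperoxia 3 (adjusted p otherwise up to 0.0896). Every gene named from the 7 lists that passed with all libraries also passed, in the same direction, without hyperoxia 1.

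The lists were also counted within the 2 runs of library letters, where the share of all genes called differed: 5.34% were higher and 3.47% lower in B to M, and 11% higher and 10.3% lower in O to S. Within B to M and O to S, the other thioredoxin and peroxiredoxin genes gave 3 higher and 1 lower, and 5 higher and 6 lower. NRF2 regulators gave 1 and 3 higher with 0 lower in each, and the other NRF2 targets 7 and 17 higher with 0 lower in each. Clients of thioredoxin gave 0 higher and 1 lower in each run, selenoprotein synthesis genes 0 in either direction, and other selenoprotein genes 0 of either in B to M and 2 higher and 1 lower in O to S. The mitochondrial antioxidant and NADPH genes gave 2 higher and 0 lower in B to M and 4 higher and 1 lower in O to S. Of the genes named above, Txnip, Sesn1, Sesn3, Mafg, Ept1, Selo, Sod2, Shmt2 and Me3 did not pass within B to M (adjusted p from 0.0611 for Sod2 to 0.458 for Me3), and Papss1 did not within O to S (0.337). Nfe2l2 (0.0888 and 0.128), Nnt (0.0693 and 0.225), Idh2 (0.0839 and 0.200), Msrb2 (0.137 and 0.178), Secisbp2 (0.174 and 0.172) and Sephs1 (0.392 and 0.0665) passed in neither run.

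Genes whose pattern over the 13 libraries lay nearest to the genes at either end of the range were sought among 10111 candidates, by the root mean square distance of log2 CPM after subtraction of the normoxic mean. For Srxn1 they were Ifrd1 (distance 0.392), Col4a1 (0.466) and Col18a1 (0.466), with log2 fold changes of 2.13, 2.26 and 2.42. For Prdx5, whose log2 fold change was the lowest of the 9, they were Bin1 (0.246), Cox8a (0.259) and Rplp1 (0.260), with log2 fold changes of -0.19, -0.0053 and 0.04. Hyperoxia 1 was far below the hyperoxic mean for all 3 neighbours of Prdx5, at 2.14, 12.3 and 89.0 CPM against means of 19.0, 116 and 548 CPM. The neighbours were chosen for nearness over these same 13 libraries. Their log2 fold changes and the low values in hyperoxia 1 therefore follow from that choice and are a description only.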

How the data were processed

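Lung RNA from 7 normoxic and 6 hyperoxic samples was sequenced by Quant-seq. BioJupies, a pipeline built on kallisto, was used by the authors for quantification; they deposited raw counts of 32544 symbols (12826 without a count) and these values as log10 of CPM plus 1. The submitters' processing notes name mm10, kallisto and limma 3.54.2; strand use is not given in the sources used here. All columns were mapped by title (0 unmapped). The 10 genes and the lists of related genes were chosen with earlier results of these data known.

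Counts were tested with edgeR 4.0.16 in R 4.3.3 (filterByExpr, TMM, glmQLFit and glmQLFTest, Benjamini-Hochberg over 12496 genes, threshold 0.05). CPM are scaled by TMM, and log2 CPM use a prior count of 2. The alternatives were DESeq2 1.42.0, limma-voom and limma 3.58.1 on the deposited log10 values, no TMM factors, tests of unfiltered genes, a minimum of 10 counts per gene and library, the letter run of the library names as a term or a subset, the replicate number as a block, 2 counts added to the ratios, and each library left out. Fits were tested on simulated data. PCR reads without molecular identifiers are not independent molecules, so the floor of 3 counts covers counting error only. Coordinates are from a GRCm38 annotation, and promoters from RefSeq (GRCm38.p6), matched by symbol.

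Genes named in the text are the 10 genes; up to 3 higher and 3 lower per list with the smallest p; Nfe2l2, Keap1, Prdx2 and Prdx4; and 3 nearest patterns for the genes with the largest and the smallest log2 fold change. Txnip, Map3k5, Eid3 and Trmt112 were named after their values were seen. A result that needs a withheld item is not reported here.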

Additional observations from a re-analysis of the deposited data

Results flagged for a closer look

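In 28 groups of library values examined, 5 held a highest or lowest library whose gap to its neighbour was a large share of the group's range by Dixon's criterion, where chance gives about 1 in 20. Hyperoxia 1 was the library in 3 of them. Its Prdx6 level of 3901 CPM was the highest in hyperoxia, next to 2562 CPM (gap 0.646 of the range). Its log2 ratio of Prdx1 to Prdx3 was 8.91, next to 5.80 (0.761), with 2 counts of Prdx3. Its mean correlation with the other libraries was 0.779, next to 0.886 (0.763). In normoxia, Prdx3 was lowest in normoxia 7 at 9.52 CPM, next to 15.1 CPM (0.601), and Nqo1 was highest in normoxia 3 at 6.21 CPM, next to 4.18 CPM (0.638).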

How the results depend on the processing

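Srxn1 and Txnrd1 kept their direction and their call under every alternative run. The number of all genes called was 2819, 2305 to 3633 with 1 library left out, 1336 with the replicate number as a block and 1120 within the libraries B to M. The same-numbered libraries deviated together in 1 of 6 pairs (correlations from -0.33 to 0.27). This gave no sign that the numbers pair samples, but so few pairs cannot exclude it. With the block, Prdx6 was not called (adjusted p = 0.141) and the reductase ratio shifted by 2.80 (adjusted exact p = 0.0938). Within B to M and O to S that ratio shifted by 3.78 and 0.60 (0.0536 and 0.600). With the block and within B to M the unadjusted p, 0.0313 and 0.0179, was the smallest their 64 and 56 permutations allow, and 10 permutations in O to S cannot reach 0.05. With the block, the calls of Txnip, Sesn1, Papss1, Msrb2, Mafg, Nfe2l2, Secisbp2, Sephs1, Ept1, Selo, Shmt2, Nnt, Idh2 and Me3 were also absent (adjusted p from 0.0505 to 0.123), leaving 0 lower mitochondrial antioxidant and NADPH genes. Without the filter, Papss1, Sephs1, Selo and Me3 did not pass, and neither did Secisbp2 without TMM factors or in limma on the deposited values. Directions turned without hyperoxia 1 for Txn1 (0.091; -0.28 to 0.091 with 1 library left out), Prdx3 (0.15; -0.30 to 0.15), Prdx5 (0.12; -0.30 to 0.12), Prdx2 (-0.0047; -0.0047 to 0.21) and the peroxiredoxin ratio (-0.0055), and within O to S for Txn1 (0.17), Prdx3 (0.42), Prdx5 (1.04) and the peroxiredoxin ratio (-0.11); the cause was not tested. With 1 library left out, the thioredoxin ratio shifted by -1.33 to -0.71, the reductase ratio by 2.36 to 3.09 and the peroxiredoxin ratio by -0.0055 to 0.81. Counts under 3 set to 3, chosen after the data were seen, changed no call of the 3 ratios. A minimum of 10 counts in every library removed Prdx3, Prdx5 and Nqo1, and Txnrd2 could be fitted only without the filter and within B to M. Of the other values for the 9 genes tested, 191 kept direction and call, 3 gained a call (Txn2 without normoxia 3 and within O to S, Nqo1 without hyperoxia 1) and 4 lost one, each for Prdx6 (with the block, without normoxia 6 or 7, and within B to M). Depth limits Txnrd2 (1 to 25 counts) and Nqo1 (0 to 43 counts) most.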
